A study of Arabidopsis thaliana with 8 samples.

Results

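The genes described here are 37 loci of the jasmonate pathway in the shoot apex of Arabidopsis thaliana, of 27655 loci in the deposited expression table. They were taken by a list of locus identifiers written with earlier results of these data known, and comprise 12 JAZ repressors, 13 genes of hormone synthesis, 4 of hormone conversion, 5 of perception and transcription, and 3 response genes. Of the 37, 32 reached at least 1 RPKM (reads scaled by transcript length in kb and by M of reads) in at least 2 of the 8 libraries and were tested among 17467 genes. The other 5 (JAZ4, JAZ8, DAD1, JMT and TAT3) stayed below this limit and are given by their values only.

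RNA-seq libraries were made from shoot apices of seedlings kept in short days at 23 °C on MS plates and sampled at ZT 8, that is, 8 h after lights on. The knockdown line, pFD::amiR-PECT1, carries an artificial microRNA against PECT1 under the promoter of FD, a flowering gene expressed in the apex, and its apices were taken at 10 and 16 days of age. Wild-type apices without this transgene were taken at the same ages and time of day. Each of the 4 groups had 2 libraries, and the labels give neither the number of transgenic lines nor the origin of the 2 libraries. The p-values therefore measure the spread between these libraries, which may be technical.

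Jasmonate is made from linolenic acid of plastid membranes. Lipoxygenase, allene oxide synthase and allene oxide cyclase give the intermediate OPDA in the plastid, and OPDA reductase and β-oxidation complete the hormone in the peroxisome, after which it is joined to isoleucine. The conjugate binds the F-box protein COI1 together with a JAZ repressor, the JAZ protein is degraded, and MYC transcription factors are released. Among their targets are the JAZ genes and synthesis genes themselves, so transcripts of the pathway are known to accumulate within minutes to hours of wounding or touch, while vegetative storage proteins accumulate in leaves over a longer time.

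Estimated depth was 15.48 to 18.18 M reads per library. PECT1, the targeted gene, had 35.3 and 37.1 RPKM in knockdown apices, against 40.7 and 39.2 RPKM in wild-type apices at day 10, and 34.4 and 37.03 RPKM against 40.4 and 41.3 RPKM at day 16 in knockdown and wild-type apices. Every knockdown library lay below every wild-type library, and the mean log2 difference of -0.16 ± 0.10 (SE) was not called (limma, adjusted p = 0.540). Of the shoot apex markers, STM, KNAT1 and ANT were present at 6.20 to 25.3 RPKM in every library, and the stem cell genes WUS and CLV3 were at 0 to 0.72 RPKM. STM was higher in both knockdown libraries than in both wild-type libraries at each age. It was also higher in every day 16 library than in every day 10 library, whereas KNAT1 and ANT overlapped between the ages. The sum of the leaf mesophyll markers (5 genes) overlapped between genotypes at day 10. Of these genes, CAB2, RCA and LHB1B1 were then lower in both knockdown libraries than in both wild-type libraries (21% of all genes), and RBCS1A and CAB1 overlapped. At day 16 the sum was 22814 and 23534 RPKM in knockdown apices, against 27180 and 24299 RPKM in wild-type apices. With age RBCS1A, RCA and LHB1B1 were lower at day 16 within each genotype, and CAB1 and CAB2 overlapped. Flower markers (5 genes) summed to 24.0 and 18.8 RPKM in knockdown apices, against 3.86 and 2.78 RPKM in wild-type apices at day 10, and 5.54 and 8.11 RPKM against 1.36 and 1 RPKM at day 16 in knockdown and wild-type apices. SEP3, a floral organ factor, made up most of that sum and was called higher in knockdown at each age (limma, adjusted p = 0.00552 at day 10 and 0.0190 at day 16). The part of these markers in the jasmonate values was not tested. In such bulk samples, fewer cells of a type and less RNA per cell cannot be told apart.

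In both knockdown groups, most of these genes stood high in the library numbered 2 and low in the library numbered 1. At day 10, 16 of the 32 tested genes were at least 1 log2 unit higher in knockdown library 2 than in knockdown library 1, where 2.18% of all tested genes were. At day 16 the count was 21 of 32 in knockdown apices, where 3.84% of all tested genes were. In wild-type apices the same difference was seen for 1 of 32 genes at day 10 (1.51% of all genes) and for 7 of 32 at day 16 (1.56% of all genes). The opposite difference was seen in no jasmonate gene of either knockdown group or of the day 10 wild type, and in 2 genes of the day 16 wild type, LOX2 and VSP1 (0.521% of all genes). Over all tested genes that opposite difference was seen in 0.95%, 0.75% and 0.79% in the knockdown at day 10, the knockdown at day 16 and the wild type at day 10. These differences are given as a description, because the library numbers carry no experimental meaning in the labels.

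The 16 genes that showed the difference in both knockdown groups (0.985% of all tested genes did) were JAZ1, JAZ3, JAZ5, JAZ6, JAZ7, JAZ10, LOX3, LOX4, AOS, AOC1, AOC2, AOC3, OPR3, OPCL1, CYP94B3 and MYC2. For MYC2 the difference rests on library 1 values listed at 0. The 16 genes are repressors, enzymes of synthesis (lipoxygenases, AOS, cyclases, OPR3 and OPCL1), a catabolic enzyme and a transcription factor. No storage protein was among them, nor was ACX1 of β-oxidation, at 0.021 log2 units in knockdown apices at day 10 and 0.42 at day 16. Of these, JAZ1, JAZ7, LOX3, LOX4, AOC1, AOC3 and CYP94B3, 7 genes in all, were also at least 1 log2 unit higher in library 2 of the day 16 wild type (0.418% of all tested genes met all 3 conditions). The median difference over the 32 genes was 1.01 log2 units in knockdown apices at day 10, against 0.096 over all genes, and 1.58 in knockdown apices at day 16, against 0.25 over all genes.

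**Figure D1:**
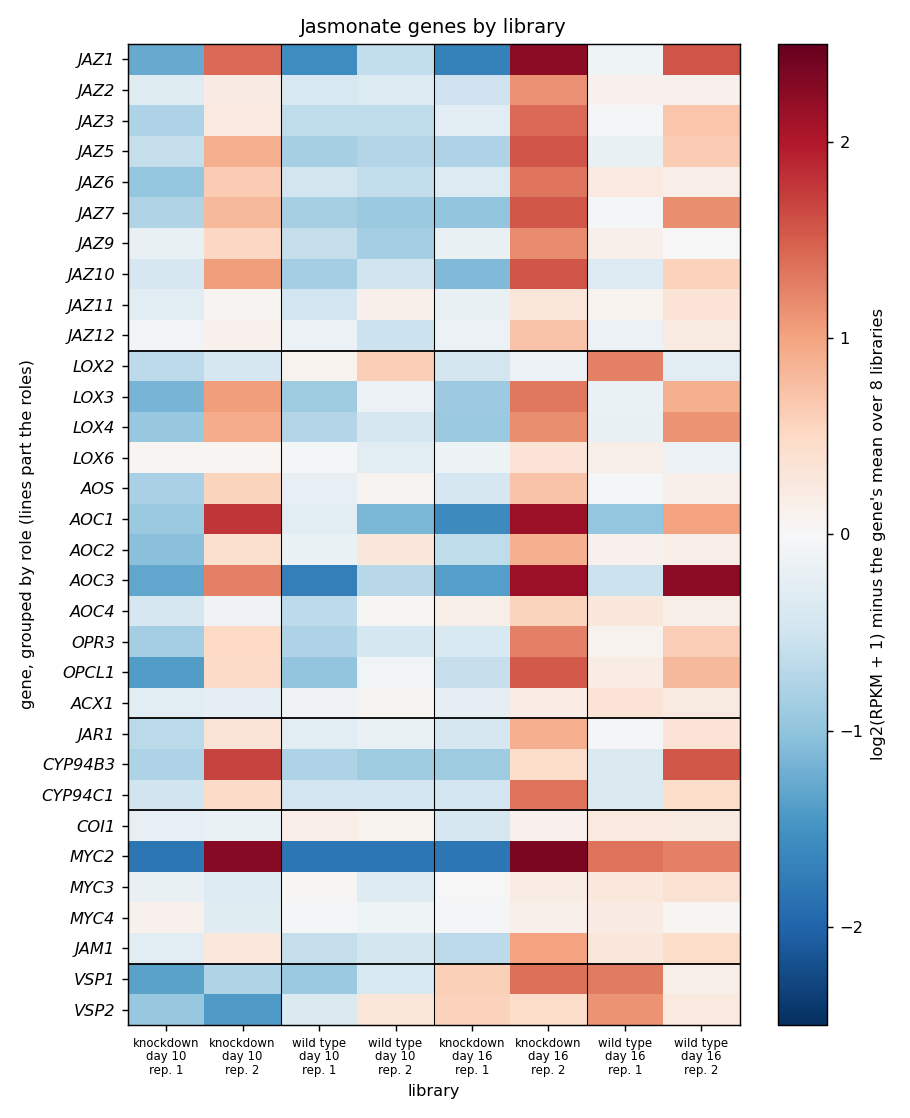
Each row is 1 of the 32 tested jasmonate genes and each column 1 of the 8 libraries. Colour gives log2(RPKM + 1) minus the gene's mean over the 8 libraries, and horizontal lines part the roles. Columns for knockdown library 2 are red from JAZ1 to JAZ10, LOX3, LOX4, AOC1 and AOC3 at both ages, whereas in the VSP1 and VSP2 rows at the foot the knockdown columns are blue at day 10 and red at day 16.

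**Figure D2:**
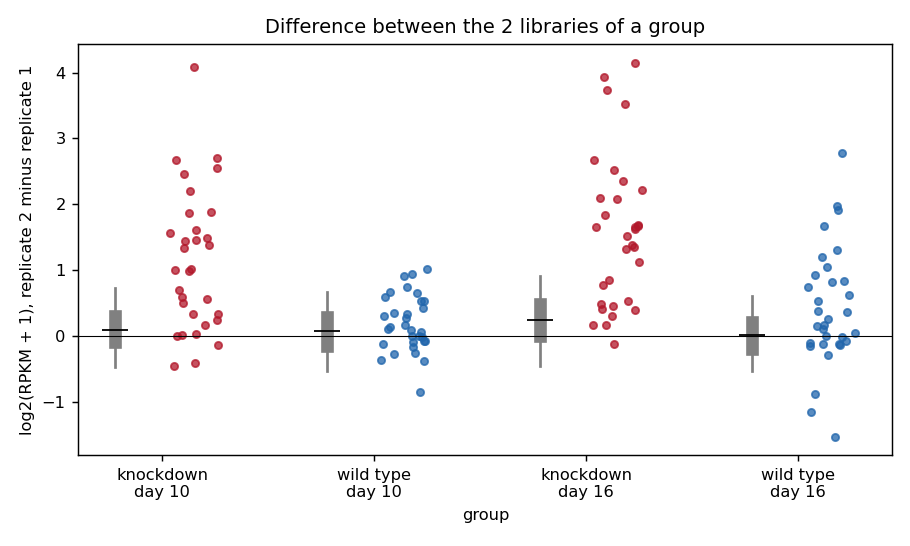
Each point is 1 of the 32 tested jasmonate genes, and its height is the difference between library 2 and library 1 of the group on the log2(RPKM + 1) scale. Grey bars span the middle 50% of all 17467 tested genes, thin lines the middle 90%, and the black line their median. Points of the knockdown groups reach 4.08 and 4.15 log2 units (MYC2, listed at 0 in library 1 of both), while those of the day 10 wild type end at 1.01 (AOC3).

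Markers of touch and rapid stress (8 genes, among them the calmodulin-like genes TCH2 and TCH3 and the factor WRKY40) were read beside these genes. Their summed level was 146 and 200 RPKM in knockdown apices and 143 and 224 RPKM in wild-type apices at day 10 (library 1, then library 2). At day 16 it was 149 and 267 RPKM in knockdown apices and 192 and 263 RPKM in wild-type apices. The sum was higher in library 2 of each group, but through different genes, and some of the 8 were lower there. At day 16 these were TCH2, TCH4 and DIC2 in knockdown apices and TCH4, ZAT12, STZ and DIC2 in wild-type apices. At day 10 they were TCH4 in knockdown apices and TCH3 and ERF6 in wild-type apices. TCH3 had 51.8 and 93.6 RPKM in knockdown apices, against 60.0 and 55.7 RPKM in wild-type apices at day 10, and 38.8 and 147 RPKM against 45.8 and 129 RPKM at day 16 in knockdown and wild-type apices. TCH4, an enzyme of cell wall xyloglucan, had 49.0 and 31.0 RPKM in knockdown apices, against 38.7 and 98.6 RPKM in wild-type apices at day 10, and 38.8 and 31.7 RPKM against 43.8 and 39.4 RPKM at day 16 in knockdown and wild-type apices. TCH3 was thus higher in library 2 in all groups but the day 10 wild type, and TCH4 in that group alone. WRKY40 had 0.49 and 7.80 RPKM in knockdown apices, against 0.96 and 1.66 RPKM in wild-type apices at day 10, and 1.85 and 15.5 RPKM in knockdown apices, against 7.52 and 14.3 RPKM in wild-type apices at day 16. The part of handling or touch in the jasmonate values was not tested. Root hair markers were at or near 0 in each library. Vascular markers (5 genes) summed to 117 and 116 RPKM in knockdown apices, against 105 and 88.6 RPKM in wild-type apices at day 10. At day 16 their sum was 89.8 and 124 RPKM in knockdown apices, against 90.15 and 97.6 RPKM in wild-type apices. At day 10 SUC2, HA3 and XCP2 were higher in both knockdown libraries (19.9% of all genes), and APL and XCP1 overlapped. The part of vascular tissue in the jasmonate values was not tested.

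Promoter windows of 250 bases before the annotated start were read for the 37 genes. They are printed for 4 of the genes that the authors' deposited tables list at day 10. JAZ1, AOC3 and CYP94B3, listed as higher but without either motif, are not printed, so the 4 do not show how motif and direction go together. The sequences are from RefSeq (TAIR10.1), 5′ to 3′ on the gene's strand. JAZ5 (chr1:5957512-5957761, minus strand) and AOC1 (chr3:9403529-9403778, plus strand) hold a T/G-box, AACGTG or its reverse complement CACGTT. JAZ7 (chr2:14572780-14573029, plus strand) holds the G-box CACGTG, and VSP2 (chr5:8502225-8502474, minus strand), which is listed in the opposite direction, holds neither. Capitals mark the motif.
JAZ5: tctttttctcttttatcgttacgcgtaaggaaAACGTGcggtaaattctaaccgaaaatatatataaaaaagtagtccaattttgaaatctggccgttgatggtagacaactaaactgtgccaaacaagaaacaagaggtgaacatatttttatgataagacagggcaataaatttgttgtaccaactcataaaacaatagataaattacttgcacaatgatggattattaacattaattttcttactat
JAZ7: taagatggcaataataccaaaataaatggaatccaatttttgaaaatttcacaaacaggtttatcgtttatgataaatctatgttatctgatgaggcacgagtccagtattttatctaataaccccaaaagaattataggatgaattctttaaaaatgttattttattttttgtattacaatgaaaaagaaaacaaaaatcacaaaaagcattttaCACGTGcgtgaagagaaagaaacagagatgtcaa
AOC1: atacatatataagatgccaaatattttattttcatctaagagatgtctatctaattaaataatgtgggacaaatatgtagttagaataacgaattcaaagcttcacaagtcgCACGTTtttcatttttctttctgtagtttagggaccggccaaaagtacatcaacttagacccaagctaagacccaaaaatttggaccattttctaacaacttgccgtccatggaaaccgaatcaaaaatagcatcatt
VSP2: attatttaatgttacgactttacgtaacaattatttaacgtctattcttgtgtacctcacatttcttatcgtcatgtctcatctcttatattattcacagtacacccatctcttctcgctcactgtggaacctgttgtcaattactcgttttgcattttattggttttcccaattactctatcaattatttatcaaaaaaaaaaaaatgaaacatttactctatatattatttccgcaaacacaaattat

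The motif starts 218 bases before the transcript start in JAZ5, 34 bases before it in JAZ7 and 138 bases before it in AOC1. On either strand, the G-box was found in the windows of 6 of the 37 jasmonate genes (16.2%), against 6.49% of 27443 coding genes. The T/G-box was found in 9 of 37 (24.3%), against 7.54% of coding genes. The 2 motifs, both known binding sites of MYC factors, cannot overlap each other. Among the 16 genes high in library 2 of both knockdown groups, 3 held a G-box (18.8%) and 6 a T/G-box (37.5%), and among the other 21 genes 3 held each motif (14.3%). The windows of JAZ1, AOC3 and CYP94B3, which the authors also list as higher at day 10, held neither. Those of DAD1, listed as higher too, and of VSP1, not listed, held a T/G-box. A match is a description of these letters, not of binding.

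The JAZ repressors hold back MYC factors until jasmonate is sensed, and most are themselves induced by the hormone. JAZ12, JAZ9, JAZ2, JAZ6 and JAZ11 were at 4.87 RPKM or more in every library, and below them in at least 1 library lay a low set, JAZ1, JAZ3, JAZ5, JAZ7 and JAZ10, with JAZ4 and JAZ8 at or under 0.72 RPKM in each library. JAZ12 (AT5G20900, chromosome 5, 7090704 to 7092539, plus strand), the most abundant, had 58.0 and 65.4 RPKM in knockdown apices, against 54.9 and 41.8 RPKM in wild-type apices at day 10. At day 16 JAZ12 had 55.0 and 100 RPKM in knockdown apices, against 55.3 and 71.5 RPKM in wild-type apices. The highest library for JAZ12 was thus knockdown library 2 at day 16. Its exons overlap those of AT5G20910 on the opposite strand, which had 3.57 to 5.80 RPKM.

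JAZ1, JAZ3, JAZ5, JAZ7 and JAZ10 were each at least 1 log2 unit higher in library 2 of both knockdown groups, as was JAZ6. JAZ4 and JAZ8 were not tested. JAZ1 (AT1G19180, chromosome 1, 6621777 to 6623668, plus strand), a repressor known for fast induction, had 0.75 and 10.2 RPKM in knockdown apices, against 0.42 and 1.72 RPKM in wild-type apices at day 10. At day 16 JAZ1 had 0.29 and 18.65 RPKM in knockdown apices, against 2.87 and 11.4 RPKM in wild-type apices. The day 16 wild-type libraries both lay between the 2 knockdown libraries, and the group means were 5.45 ± 6.65 against 1.07 ± 0.92 RPKM at day 10 and 9.47 ± 13.0 against 7.12 ± 6.02 RPKM at day 16 in knockdown and wild-type apices (SD, n = 2 each). Between genotypes JAZ1 differed by 1.17 ± 1.18 log2 units (SE) at day 10 and by -0.46 ± 1.18 at day 16, each within 1 standard error of 0, and was not called (limma, adjusted p = 0.856 and 0.950).

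JAZ5 (AT1G17380) and JAZ7 (AT2G34600) behaved alike at low levels. JAZ5 had 0.50 and 3.23 RPKM in knockdown apices, against 0.26 and 0.35 RPKM in wild-type apices at day 10, and 0.32 and 5.74 RPKM against 0.98 and 2.5 RPKM at day 16 in knockdown and wild-type apices. JAZ7 had 0.36 and 3.02 RPKM in knockdown apices, against 0.28 and 0.21 RPKM in wild-type apices at day 10, and 0.16 and 5.69 RPKM against 1.23 and 4.10 RPKM at day 16 in knockdown and wild-type apices. For both genes the groups did not overlap at day 10, with knockdown library 1 only just above wild type, and the wild-type libraries lay inside the knockdown range at day 16. JAZ10, whose splice forms differ in their sensitivity to degradation, had 2.47 and 8.55 RPKM in knockdown apices, against 1.59 and 2.29 RPKM in wild-type apices at day 10. At day 16 JAZ10 had 1.17 and 12.8 RPKM in knockdown apices, against 2.64 and 5.96 RPKM in wild-type apices, so that the lowest and the highest values both came from the knockdown line.

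JAZ9 (AT1G70700, chromosome 1, 26654529 to 26657350, plus strand) was the JAZ gene with the smallest p between genotypes. It had 21.9 and 36.3 RPKM in knockdown apices, against 16.2 and 13.5 RPKM in wild-type apices at day 10, and the groups did not overlap. At day 16 JAZ9 had 21.8 and 58.5 RPKM in knockdown apices, against 27.7 and 25.3 RPKM in wild-type apices, with wild type between the knockdown libraries. Its mean log2 change over both ages was 0.66 ± 0.27 (SE) and was not called (limma, adjusted p = 0.393). JAZ2, JAZ3, JAZ6 and JAZ11 spanned 12.7 to 42.2, 0.62 to 6.37, 5.75 to 32.45 and 4.87 to 9.27 RPKM over the 8 libraries, and the highest value was that of knockdown library 2 at day 16 for JAZ2, JAZ3 and JAZ6 but not for JAZ11. Over the 10 tested JAZ genes the median log2 change between knockdown and wild type was 0.63 at day 10 and 0.19 at day 16, beside -0.016 and -0.11 over all genes.

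**Figure D3:**
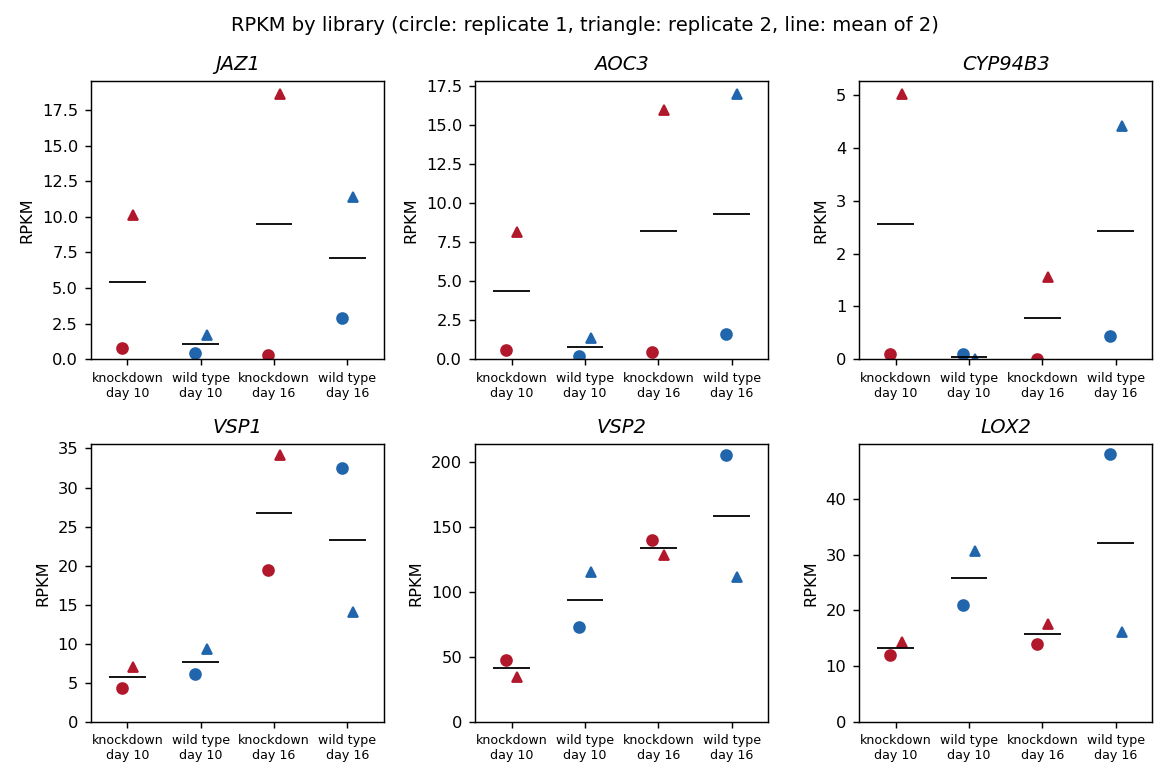
RPKM of 6 genes in each library, with knockdown in red and wild type in blue, circles for library 1, triangles for library 2 and a line at the mean of 2. JAZ1, AOC3 and CYP94B3 have their highest knockdown value in library 2 at both ages, with library 1 at or under 0.75 RPKM. VSP1 and LOX2 were also higher in library 2 of the knockdown, by less than 1 log2 unit at either age, and VSP2 was lower there.

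Synthesis genes comprised DAD1, the lipoxygenases, AOS, the cyclases, OPR3, OPCL1 and ACX1. DAD1, a phospholipase known for releasing linolenic acid in stamens, was listed at 0 in 5 libraries, had 2.11 RPKM in knockdown library 2 at day 10, and had 0.08 RPKM in knockdown and 0.14 RPKM in wild type in library 2 at day 16. DAD1 was thus seen only in libraries numbered 2, although not in that of the day 10 wild type. LOX2 (AT3G45140, chromosome 3, 16525245 to 16529352, plus strand) is the lipoxygenase known to supply most of the jasmonate of wounded leaves. LOX2 was lower in knockdown apices at day 10, where 23 of 32 changes of the tested genes were positive, and at day 16, where 15 of 32 were. It had 11.99 and 14.3 RPKM in knockdown apices, against 20.9 and 30.55 RPKM in wild-type apices at day 10, and 13.98 and 17.5 RPKM against 48.1 and 16.1 RPKM at day 16 in knockdown and wild-type apices. The groups did not overlap at day 10, and wild-type library 2 fell within the knockdown range at day 16. The mean log2 change of LOX2 over both ages was -0.85 ± 0.29 (SE) and was not called (limma, adjusted p = 0.315).

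LOX3 and LOX4, lipoxygenases required for stamen maturation, went with the JAZ genes. LOX3 had 1.18 and 9.02 RPKM in knockdown apices, against 1.63 and 3.41 RPKM in wild-type apices at day 10, and 1.59 and 11.03 RPKM against 3.32 and 7.97 RPKM at day 16 in knockdown and wild-type apices. LOX4 ranged from 0.29 to 4.61 RPKM with both extremes in the knockdown line. LOX6 stayed at or under 16.1 RPKM in all 8 libraries and differed by less than 0.5 log2 units between the libraries of each group. AOS (AT5G42650, chromosome 5, 17097564 to 17099595, minus strand), which encodes the single allene oxide synthase, had 16.8 and 45.2 RPKM in knockdown apices, against 26.3 and 31.9 RPKM in wild-type apices at day 10, and 22.3 and 50.1 RPKM against 29.9 and 33.3 RPKM at day 16 in knockdown and wild-type apices. At each age the wild-type libraries of AOS lay between the knockdown libraries, and the genotypes differed by -0.065 ± 0.43 log2 units (SE) at the first age and by 0.086 ± 0.43 at the second (limma, adjusted p = 0.982 and 0.979).

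The 4 allene oxide cyclases differed among themselves. AOC1, AOC2 and AOC3 (AT3G25760, AT3G25770 and AT3G25780) stand side by side on chromosome 3 (9403779 to 9411090, plus strand), and AOC4 lies on chromosome 1. AOC2, the most abundant of them, had 14.2 and 40.0 RPKM in knockdown apices, against 26.9 and 36.7 RPKM in wild-type apices at day 10, and 19.1 and 56.7 RPKM against 32.8 and 34.1 RPKM at day 16 in knockdown and wild-type apices. Its neighbours were lower and spread more. AOC1 had 1.19 and 13.3 RPKM in knockdown apices, against 2.43 and 0.90 RPKM in wild-type apices at day 10, and 0.38 and 17.4 RPKM against 1.13 and 7.38 RPKM at day 16 in knockdown and wild-type apices. AOC3 had 0.57 and 8.18 RPKM in knockdown apices, against 0.17 and 1.36 RPKM in wild-type apices at day 10, and 0.47 and 16.0 RPKM against 1.63 and 17 RPKM at day 16 in knockdown and wild-type apices. Wild-type library 2 at day 16 was the highest of all for AOC3. AOC4 had 15.4 and 19.7 RPKM in knockdown apices, against 13.1 and 21.4 RPKM in wild-type apices at day 10, and 23.5 and 31.3 RPKM against 25.7 and 23.5 RPKM at day 16 in knockdown and wild-type apices, without the split. Transcripts of AOC1 and AOC3 share few 50-base stretches (2.20% of those of AOC1), and how the authors assigned reads from these was not tested.

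OPR3 (AT2G06050, chromosome 2, 2359114 to 2362375, minus strand), the OPDA reductase, had 15.2 and 40.0 RPKM in knockdown apices, against 16.0 and 20.4 RPKM in wild-type apices at day 10, and 21.4 and 68.6 RPKM against 29.8 and 43.9 RPKM at day 16 in knockdown and wild-type apices. Library 2 was the higher in each of the 4 groups. OPCL1, a CoA ligase of the peroxisome, ranged from 1.89 to 21.0 RPKM in the same manner. ACX1, an acyl-CoA oxidase of β-oxidation, stayed within 21.0 to 32.4 RPKM, and its knockdown libraries lay below its wild-type libraries at each age. Its difference of -0.24 ± 0.18 log2 units (SE) at day 10 and -0.30 ± 0.18 at day 16 was not called (limma, adjusted p = 0.799 and 0.824).

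Genes of hormone conversion act on the finished jasmonate. JMT, which methylates it, did not exceed 0.61 RPKM. JAR1, which forms the active isoleucine conjugate, had 8.43 and 17.8 RPKM in knockdown apices, against 11.5 and 12.5 RPKM in wild-type apices at day 10, and 10.3 and 27.4 RPKM against 13.7 and 18.1 RPKM at day 16 in knockdown and wild-type apices. CYP94B3 (AT3G48520, chromosome 3, 17974853 to 17976774, minus strand), which oxidises the conjugate and so begins its removal, had 0.09 and 5.02 RPKM in knockdown apices, against 0.09 RPKM and a value listed at 0 in wild-type apices at day 10. At day 16 CYP94B3 was listed at 0 and had 1.55 RPKM in knockdown apices, against 0.44 and 4.42 RPKM in wild-type apices. At each age the library with the highest CYP94B3 value was numbered 2. CYP94C1, which takes the oxidation further, ranged from 0.65 to 5.03 RPKM, with the top value in knockdown library 2 at day 16.

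Perception genes varied far less. COI1 (AT2G39940, chromosome 2, 16672493 to 16675864, minus strand), the F-box receptor, had 7.77 and 7.96 RPKM in knockdown apices, against 10.2 and 9.68 RPKM in wild-type apices at day 10, and 6.49 and 9.84 RPKM against 10.9 and 10.7 RPKM at day 16 in knockdown and wild-type apices. The knockdown libraries lay below the wild-type libraries within each age, but knockdown library 2 at day 16 passed 1 wild-type library of day 10. The mean log2 change of COI1 over both ages was -0.35 ± 0.15 (SE) and was not called (limma, adjusted p = 0.414). Exons of COI1 overlap those of AT2G39930 on the opposite strand, which had 7.26 to 13.2 RPKM, and reads of the 2 genes could be mixed if strand was not used in counting.

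MYC2 (AT1G32640, chromosome 1, 11798119 to 11801407, minus strand), the leading transcription factor of the pathway, gave values that call for care. It was listed at 0 and had 15.9 RPKM in knockdown apices, against 0 in both wild-type libraries at day 10. At day 16 MYC2 was listed at 0 and had 16.8 RPKM in knockdown apices, against 7.94 and 7.34 RPKM in wild-type apices. The zeros thus make up 4 of 8 libraries, and no fold change between groups is given against them here. The differences of 4.08 and 4.15 log2 units between the knockdown libraries at day 10 and day 16 rest on such zeros. MYC2 remains among the 32 tested genes in the counts and medians. Exact zeros of this kind were few, since in each library only 1 to 4 genes were listed at 0 among the 11330 to 11538 whose median over the other libraries was at least 5 RPKM. Genes at 0 in 1 library of a group and at 5 RPKM or more in the other were also counted. These were 17 in knockdown at day 10 and 9 at day 16, MYC2 among them. In wild type they were 3 at day 10 and 1 at day 16. Exons of MYC2 overlap AT1G32630 on the opposite strand, which had 5.38 and 9.69 RPKM in knockdown apices and 5.72 and 5.29 RPKM in wild-type apices at day 10, and 9.06 and 12.1 RPKM in knockdown apices and 9.71 and 11.8 RPKM in wild-type apices at day 16. Whether the zeros reflect the authors' assignment of reads was not tested. MYC3, a close relative of MYC2, had 19.6 and 17.8 RPKM in knockdown apices, against 23.2 and 17.8 RPKM in wild-type apices at day 10, and 22.7 and 25.7 RPKM against 27.3 and 29.5 RPKM at day 16 in knockdown and wild-type apices. MYC4 held to 4.89 to 7.42 RPKM, and JAM1, a related factor that opposes MYC2, to 5.32 to 19 RPKM with the top value in knockdown library 2 at day 16.

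VSP1 (AT5G24780) and VSP2 (AT5G24770), neighbours on chromosome 5 (8500468 to 8509201, minus strand), encode vegetative storage proteins with acid phosphatase activity that are long-used markers of the jasmonate response. Between the knockdown libraries neither differed by 1 log2 unit, and library 2 was the higher for VSP1 and the lower for VSP2 at both ages. VSP2 had 47.8 and 34.5 RPKM in knockdown apices, against 72.8 and 115 RPKM in wild-type apices at day 10, and the groups did not overlap. At day 16 VSP2 had 140.0 and 128 RPKM in knockdown apices, against 206 and 111 RPKM in wild-type apices, and the groups overlapped. VSP1 had 4.35 and 7.04 RPKM in knockdown apices, against 6.10 and 9.26 RPKM in wild-type apices at day 10, and 19.5 and 34.1 RPKM against 32.45 and 14.04 RPKM at day 16 in knockdown and wild-type apices. VSP1 thus overlapped between genotypes at both ages. TAT3, a tyrosine aminotransferase induced by jasmonate, did not exceed 0.15 RPKM.

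Between genotypes, no jasmonate gene was called at day 10, at day 16, as the mean of both ages, or in the difference between the ages. A gene was called at an adjusted p under 0.05, and 0.0744%, 0.115%, 0.246% and 0% of all tested genes were called in these 4 comparisons (limma). At an unadjusted p under 0.05, 2 of 32 jasmonate genes lay at day 10 (JAZ9 higher, VSP2 lower; 6.66% of all genes), 0 at day 16 (6.37% of all genes), and 4 in the mean of both ages (JAZ9 higher, LOX2, COI1 and VSP2 lower; 12% of all genes). In the difference between the ages 1 of 32 did, VSP2 (1.65% of all genes). VSP2 had the smallest p of these at day 10, with a log2 change of -1.15 ± 0.30 (SE) and an adjusted p of 0.613 (limma). Over both ages its mean change was -0.66 ± 0.21 (SE), with an adjusted p of 0.290, and its change differed between the ages by 0.98 ± 0.42 (SE), with an adjusted p of 0.9997 (limma).

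The median log2 change of the 32 genes between knockdown and wild type was 0.36 at day 10, beside -0.016 over all genes, and -0.02 at day 16, beside -0.11. At day 10, 23 of 32 changes were positive (47.8% of all genes), and at day 16, 15 of 32 were (32.5% of all genes). Without knockdown library 2 of day 10 the day 10 median was -0.13, and without knockdown library 1 it was 0.83. Without knockdown library 2 of day 16 the day 16 median was -0.64, and without knockdown library 1 it was 0.75. The sign of the genotype difference thus followed which knockdown library was kept. At day 16 the median was also positive, at 0.10, after median-of-ratios scaling, which took the median of all genes to 0.0051, and 18 of 32 changes were then positive (51% of all genes). In the mean of both ages 23 of 32 changes were positive (38.9% of all genes).

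Over all 8 libraries, no jasmonate gene had its 4 knockdown values apart from its 4 wild-type values, in a table where 1.74% of tested genes were higher and 4.93% lower throughout. At day 10, both knockdown libraries were above both wild-type libraries for 8 of 32 genes (19.9% of all genes), namely JAZ2, JAZ5, JAZ7, JAZ9, JAZ10, JAZ12, LOX6 and JAM1. Both were below for 4 genes (21% of all genes), namely LOX2, ACX1, COI1 and VSP2. At day 16 the counts were 0 above (8.39% of all genes) and 3 below (25.7% of all genes), namely ACX1, COI1 and MYC3. After median-of-ratios scaling, AOC4 was above and ACX1 and COI1 were below at day 16 (17.9% of all genes in each direction). These counts are of the order that the shares over all genes would give for 32 genes, except at day 16, where fewer genes stood apart.

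**Figure D4:**
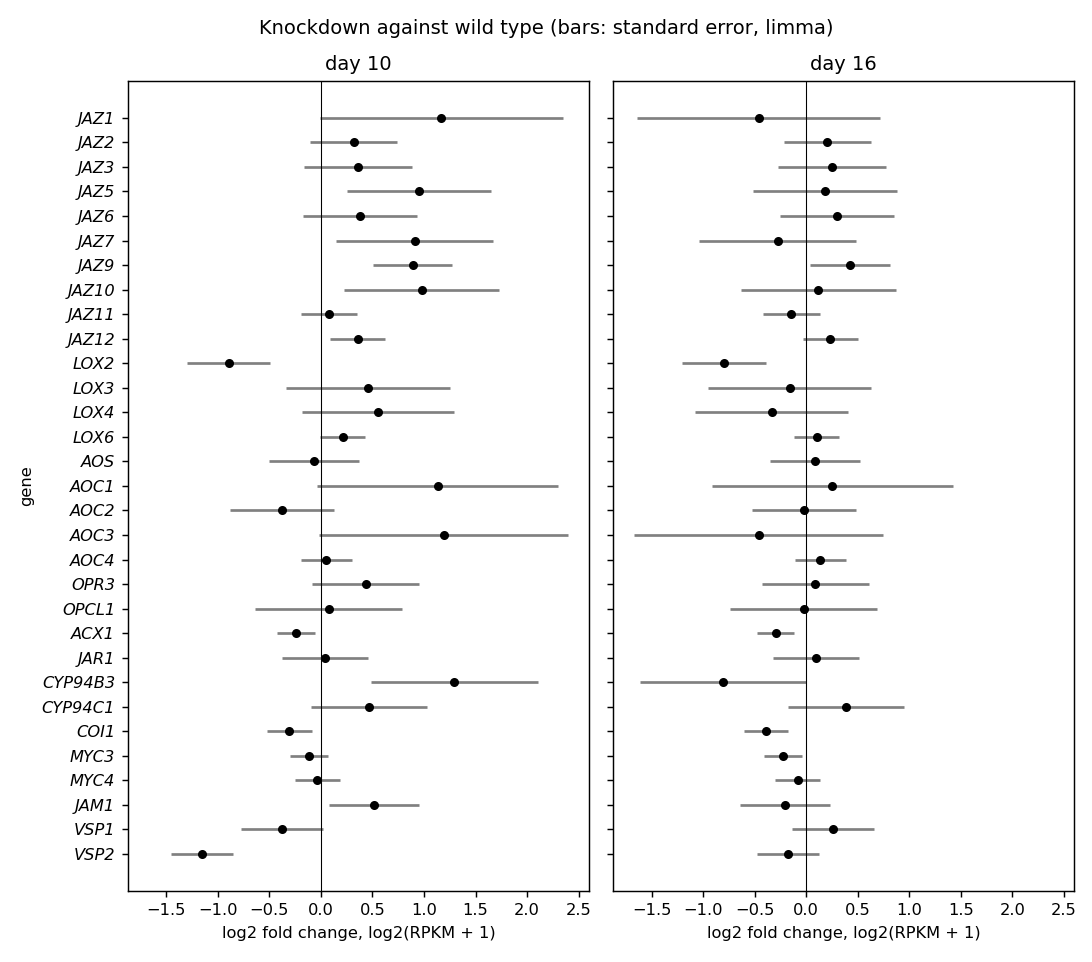
Points give the log2 fold change of knockdown against wild type for 31 of the 32 tested genes at day 10 (left) and day 16 (right), on the log2(RPKM + 1) scale, and bars the standard error from limma. At day 10 VSP2 and LOX2 lie lowest, at -1.15 and -0.90, and the widest bars are those of AOC3, JAZ1 and AOC1. MYC2 is left out, since it rests on libraries listed at 0.

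The authors' deposited table of genes higher in the knockdown line at day 10 lists 321 loci (1.16% of the 27655) and holds 7 of the 37 jasmonate genes. Folds in the authors' deposited table were 49.87 for CYP94B3 (p = 5.42e-05), 5.97 for JAZ5 (p = 0.00232), 6.59 for JAZ7 (p = 0.02) and 5.68 for AOC3 (p = 0.02). JAZ1 stood at 5.06-fold (p = 0.02), AOC1 at 4.2-fold (p = 0.03) and DAD1 at 291.29-fold (p = 0.00903) in the authors' deposited table, the last against wild-type libraries listed at 0. Of these 7 genes, JAZ5 and JAZ7 (2 genes) had both knockdown libraries above both wild-type libraries, whereas 61.0% of the listed loci found in the expression table did. For CYP94B3, JAZ1, AOC3, AOC1 and DAD1 knockdown library 1 lay inside or at the edge of the wild-type range and library 2 above it.

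The authors' deposited table of genes lower in the knockdown line at day 10 (331 loci, 1.2% of the 27655) holds VSP2 alone of the jasmonate genes. Its fold in the authors' deposited table was -2.22, where the minus sign marks a lower level (p = 0.000124), and both knockdown libraries lay below both wild-type libraries. At day 16 the authors' deposited tables of 211 higher and 213 lower loci (0.763% and 0.77% of the 27655) hold 0 of the 37 genes. Which test gave the authors' p-values is not stated in these sources. In the limma fit none of the listed jasmonate genes was called, and DAD1 was not tested.

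With age, VSP1 and VSP2 had the largest changes of the 32 genes in the knockdown line. In knockdown apices VSP2 averaged 134 ± 8.30 RPKM at day 16 and 41.2 ± 9.36 RPKM at day 10, and VSP1 26.8 ± 10.4 RPKM at day 16 and 5.70 ± 1.90 RPKM at day 10 (SD, n = 2 each). In wild-type apices VSP2 averaged 159 ± 66.9 RPKM at day 16 and 94.1 ± 30.1 RPKM at day 10, and VSP1 23.2 ± 13.0 RPKM at day 16 and 7.68 ± 2.23 RPKM at day 10 (SD, n = 2 each). Day 16 libraries lay above day 10 libraries for both genes in the knockdown line and for VSP1 in wild type, and for VSP2 in wild type they overlapped. The log2 change in the knockdown line was 1.70 ± 0.30 (SE) for VSP2 and 2.03 ± 0.40 for VSP1, and neither was called (limma, adjusted p = 0.0614 and 0.0926). With only the knockdown groups in the fit, VSP2 was called (limma, adjusted p = 0.0169). In wild type it was 0.72 ± 0.30 (SE) for VSP2 and 1.39 ± 0.40 for VSP1 (limma, adjusted p = 0.631 and 0.405).

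No jasmonate gene was called between the ages, where 0.269% of all tested genes were called in the knockdown line and 0.223% in wild type (limma). At an unadjusted p under 0.05 lay 3 of 32 in the knockdown line (AOC4, VSP1 and VSP2; 8.55% of all genes) and 4 of 32 in wild type (MYC2, MYC3, VSP1 and VSP2; 7.46% of all genes), where MYC2 rests on day 10 values of 0. In wild type that count was 15 of 32 with only the wild-type groups in the fit (10.3% of all genes) and 1 of 32 after median-of-ratios scaling (7.56% of all genes). In wild type, all 32 changes were positive, in a table where 66.3% of all genes were, and the median was 0.73 log2 units, beside 0.10 over all genes. After median-of-ratios scaling, 31 of 32 were positive (50.7% of all genes). Both day 16 libraries of wild type were above both day 10 libraries for 24 of 32 genes (32% of all genes), and for 21 of 32 after the scaling (20.3% of all genes), while 0 of 32 were below in either case (10.6% and 19.7% of all genes). Of the 8 touch and rapid stress markers, WRKY40, ZAT12, STZ, ERF6 and DIC2 had both day 16 libraries of wild type above both day 10 libraries (32% of all genes). The touch genes TCH2, TCH3 and TCH4 overlapped between the ages. These marker values were read without median-of-ratios scaling. WRKY40 had 7.52 and 14.3 RPKM at day 16, against 0.96 and 1.66 RPKM at day 10 in wild type, and STZ 15.9 and 11.03 RPKM against 2.57 and 2.72 RPKM. The part of these markers in the jasmonate values was not tested.

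In the knockdown line 29 of 32 changes with age were positive (49.2% of all genes), with a median of 0.26 log2 units beside -0.0054 over all genes. Day 16 and day 10 libraries were apart for only 5 of 32 genes, all higher at day 16 (15.9% of all genes), namely AOC4, ACX1, MYC3, VSP1 and VSP2, none of which differed by 1 log2 unit between the 2 knockdown libraries of an age. None was lower (17.9% of all genes). LOX2 joined them after median-of-ratios scaling, as 6 of 32 (19.6% of all genes), with 0 lower (18.9% of all genes) and 28 of 32 changes positive (49.6% of all genes). For the other genes the libraries of the 2 ages overlapped, as for JAZ1 with 0.29 RPKM in library 1 of day 16 and 10.2 RPKM in library 2 of day 10. Without knockdown library 2 of day 16 the median in the knockdown line was -0.27, and without knockdown library 1 of day 16 it was 1.2. AOC4 had a log2 change of 0.61 ± 0.25 (SE) in the knockdown line, and MYC3 one of 0.46 ± 0.18 in wild type, neither of them called (limma, adjusted p = 0.532 and 0.605).

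**Figure D5:**
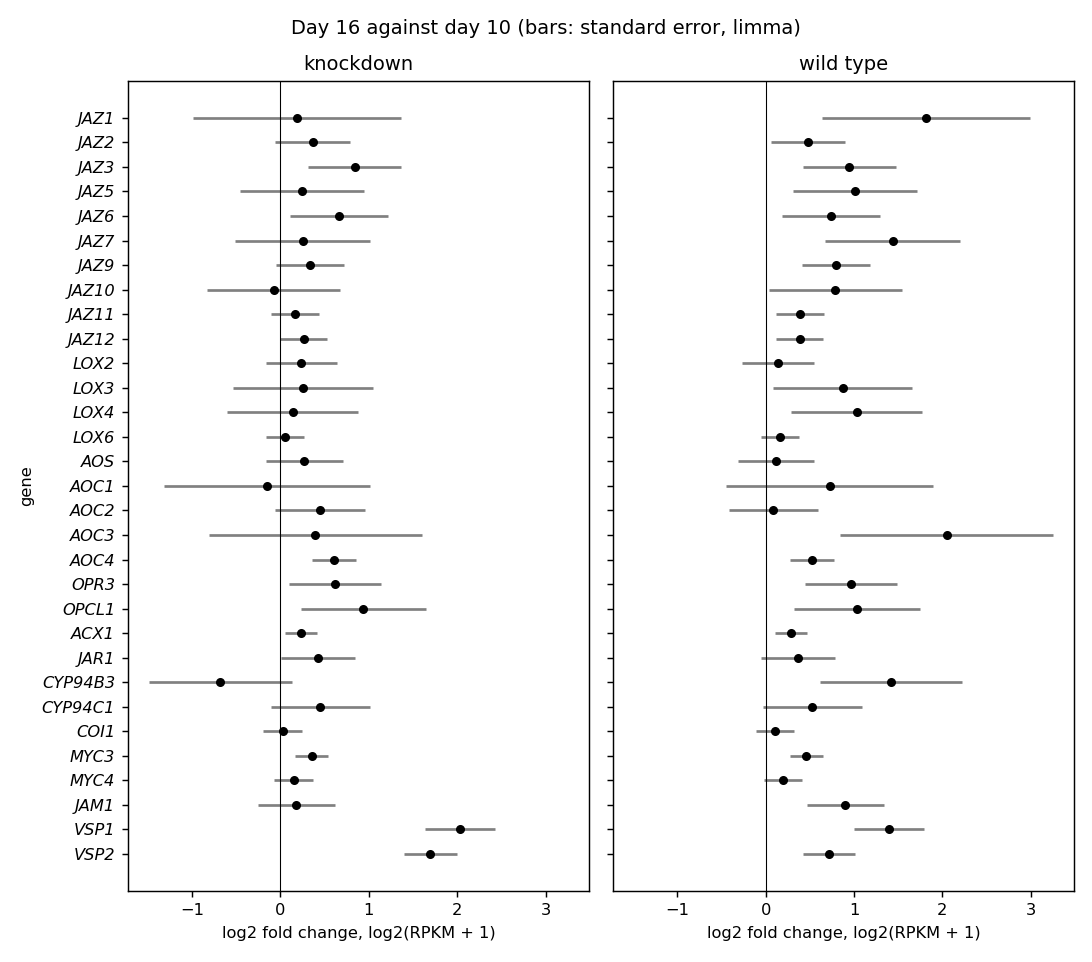
Points give the log2 fold change of day 16 against day 10 for 31 of the 32 tested genes in the knockdown line (left) and in wild type (right), on the log2(RPKM + 1) scale, and bars the standard error from limma. VSP1 and VSP2 stand apart in the knockdown line at 2.03 and 1.70, and in wild type all 31 points lie to the right of 0. MYC2 is left out, since its wild-type value rests on day 10 libraries listed at 0.

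The genotype by age comparison for the whole list mirrored these values. The difference between the knockdown effect at day 16 and that at day 10 was negative for 25 of 32 genes and positive for 7 (34.4% of all genes were positive), with a median of -0.11 log2 units beside -0.10 over all genes. All 10 tested JAZ genes were negative, with a median of -0.34, and none was called. Each of the 10 was positive in at least 1 of the alternative fits described below, at its highest from 0.075 (JAZ11) to 0.77 (JAZ6). Without knockdown library 1 of day 16 the median of the 32 genes was 0.32, beside 0.029 over all genes. VSP2 was positive, at 0.98 as given above, as was VSP1 at 0.64 ± 0.56 (SE).

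Among 39 further genes of the pathway, 31 were tested and none was called in any of the 6 comparisons (limma). At an unadjusted p under 0.05 lay 3 of 31 at day 10 (6.66% of all genes), 1 at day 16 (6.37%) and 4 in the mean of both ages (12%). In the difference between the ages 1 did (1.65%), and with age 2 did in the knockdown line (8.55%) and 2 in wild type (7.46%). FAD8, a plastid desaturase that makes linolenic acid, had 17.1 and 19.2 RPKM in knockdown apices, against 24.4 and 29.0 RPKM in wild-type apices at day 10, and 9.85 and 12.9 RPKM against 18.1 and 14.8 RPKM at day 16 in knockdown and wild-type apices. It was lower in knockdown within each age, with a mean log2 change of -0.52 ± 0.14 (SE; limma, adjusted p = 0.246). Its log2 change with age was -0.63 ± 0.20 in the knockdown line and -0.67 ± 0.20 in wild type (SE; limma, adjusted p = 0.345 and 0.440).

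ASK1, the SKP1 subunit that joins COI1 to its ubiquitin ligase, had 279 and 270 RPKM in knockdown apices, against 231 and 206 RPKM in wild-type apices at day 10, and 272 and 277 RPKM against 219 and 237 RPKM at day 16 in knockdown and wild-type apices. It was the 1 gene of the further list with all 4 knockdown libraries above all 4 wild-type libraries (1.74% of all genes), at a mean log2 change of 0.30 ± 0.087 (SE; limma, adjusted p = 0.257). AIM1, a β-oxidation enzyme, had 19.3 and 18.6 RPKM in knockdown apices, against 23.9 and 28.4 RPKM in wild-type apices at day 10, and 21.1 and 25.8 RPKM against 33.1 and 28.65 RPKM at day 16 in knockdown and wild-type apices. Its mean log2 change was -0.41 ± 0.13 (SE; limma, adjusted p = 0.281). Both knockdown libraries of AIM1 lay below both wild-type libraries at each age, as did those of PED1, FAD8 and ABCG16. Of the 31 further genes tested, 7 were lower in this way at day 10 (21% of all genes) and 10 at day 16 (25.7% of all genes). The other peroxisomal genes of the list, ACX2, ACX3, ACX5, MFP2 and PXA1, overlapped at 1 age or both. After median-of-ratios scaling, 8 of 31 were lower and 6 higher at day 10 (20.9% of all genes in each direction). At day 16, 8 were lower and 6 higher (17.9% of all genes in each direction). AIM1, FAD8, ABCG16 and MFP2 were lower at both ages after this scaling, and PED1 at neither. ORA59, a factor of the jasmonate and ethylene response, had 2.82 and 0.90 RPKM in knockdown apices, against 4.15 and 2.80 RPKM in wild-type apices at day 10, and 2.14 and 1.06 RPKM against 6.79 and 1.82 RPKM at day 16 in knockdown and wild-type apices, overlapping at each age. Its mean log2 change was -0.80 ± 0.35 (SE; limma, adjusted p = 0.407).

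FAD3, a desaturase of the endoplasmic reticulum, had 44.1 and 55.3 RPKM at day 16, against 60.7 and 84.1 RPKM at day 10 in the knockdown line, and 61.95 and 67.5 RPKM against 57.3 and 53.1 RPKM in wild type. Its log2 change with age was -0.52 ± 0.19 in the knockdown line (SE; limma, adjusted p = 0.429), and the knockdown effect differed between the ages by -0.75 ± 0.27 (SE; limma, adjusted p = 0.9997). NAC019, a factor induced by jasmonate, had 2.03 and 2.44 RPKM at day 16 in wild type, against 0.04 RPKM and a value listed at 0 at day 10. In the knockdown line NAC019 had 0.33 and 4.41 RPKM at day 16, against a value listed at 0 and 1.61 RPKM at day 10. Its log2 change in wild type was 1.66 ± 0.61 (SE; limma, adjusted p = 0.562). CYP94B1, IAR3, ILL6, CLH1 and NAC019 were at least 1 log2 unit higher in library 2 of both knockdown groups, 5 of 31 further genes (0.985% of all genes). CYP94B1, IAR3 and ILL6 act on the hormone conjugate, as CYP94B3 does. PDF1.2, MYB21 and MYB24, markers of pathogen defence and of stamens, were listed at 0 in all 8 libraries. CYP94B1, NAC019 and CORI3 are also in the authors' deposited table of genes higher at day 10, at 5.38-, 29.55- and 6.04-fold. For CYP94B1 and NAC019 knockdown library 1 lay inside or at the edge of the wild-type range. CYP94B1 had 0.99 and 11.2 RPKM in knockdown apices, against 0.70 and 1.54 RPKM in wild-type apices at day 10. CORI3 had 0.28 and 0.35 RPKM in knockdown apices, against 0.10 RPKM and a value listed at 0 in wild-type apices, and was not tested.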

How the data were processed

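RNA of 8 shoot apex libraries was sequenced, and sample titles gave the groups and replicate numbers. Strand-specific mRNA libraries were made with the NEBNext Ultra II Directional kit, per the labels' protocols, and the submitters' processing notes name the build TAIR10. No source at hand names the aligner, the counter or its use of strand. The authors deposited RPKM values for 27655 loci, per the file headers (the file's name says RPM, and the tests were run on RPKM). Of changed genes the authors deposited 4 tables, whose headers name a fold and a p-value. The deposited fold is negative in the tables of lower genes and was read there as a signed score. Stray locus cells in these tables (3, 5 and 5) were left out.

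Depth was estimated from the steps of low values and exon lengths. With it, 73.1% to 79.9% of low values came within 0.1 of a read count that is whole, so reads were not taken as recovered and no edgeR or DESeq2 test was run; voom on the estimated reads was an alternative. Tests used limma 3.58.1 (R 4.3.3, intensity trend) on log2 of RPKM + 1, a scale that understates the change of low genes. All 4 groups shared 1 estimate of spread (4 residual and 5.8 prior degrees of freedom), and two-sided p-values were adjusted by Benjamini-Hochberg over the 17467 genes that reached 1 RPKM in 2 or more libraries. The fit was tested on simulated data. The genes and lists were chosen with earlier results of these data known, so no test of the list as a whole was made, and differences between the 2 libraries of a group are descriptions.

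Of 45 further pathway genes written, 39 were used, since the annotation lacks the written symbol for 6. Per-library values are given for genes at an unadjusted p under 0.05, for VSP1, VSP2, LOX2, AOS, MYC2, COI1 and JAZ1, for the most abundant gene of each role, and for genes whose split between libraries is described, the last chosen after their values were seen. Gene positions and promoter windows came from RefSeq TAIR10.1, which matched 27445 loci. Alternatives covered the pseudocount, filter, scaling, fit and each library left out.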

Additional observations from a re-analysis of the deposited data

How the results depend on the processing

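With 2 libraries a group, the standard error of the genotype difference within an age was 1.18 log2 units for JAZ1 and 0.30 for VSP2, which limits the changes that could be called. No jasmonate gene was called in the difference between knockdown and wild type at day 10, or in its difference between the ages, under any of the alternatives run. In the change with age of the knockdown line, 1 gene, VSP2, was called when only the groups compared were fitted (limma, adjusted p = 0.0169), and 0 to 2 genes were called when single libraries were left out. These were VSP2 and VSP1, without library 1 of the day 16 wild type (adjusted p = 0.0226 and 0.0408) and without its library 2 (adjusted p = 0.0219 and 0.0378). In the change with age of wild type, 1 gene, MYC2, was called when only the groups compared were fitted (adjusted p = 0.0131), and 0 to 1 genes with libraries left out. That call rests on 2 day 10 libraries listed at 0. In the mean of both ages the count was 0 to 1 with libraries left out, the 1 being LOX2 at a log2 change of -1.23 (adjusted p = 0.0420) without library 2 of the day 16 wild type. At day 16 it was 0 to 1, the 1 being MYC2 with library 2 of both knockdown groups left out together, an alternative chosen after seeing the data. With them out, MYC2 is above 0 only in the day 16 wild type, so that call is fixed by what was left out.

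The median log2 change of the tested genes was turned or moved by leaving libraries out, and ranged from -0.17 to 0.83 between genotypes at day 10, from -0.64 to 0.75 at day 16 and from -0.48 to 0.58 as the mean of both ages. It ranged from -0.94 to 0.32 in the difference between the ages, and from -0.27 to 1.2 with age in the knockdown line. In wild type the median with age stayed positive, from 0.47 to 0.78. At day 16 the median between genotypes turned positive with a pseudocount of 4 (0.019), median-of-ratios scaling (0.10), quantile normalization (0.0839), voom on estimated reads (0.087) and without genes listed at 0 in any library (0.033, chosen after seeing the data). Causes were not tested.

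With the replicate number as a replicate block, 1 jasmonate gene, VSP2, was called with age in the knockdown line (limma, adjusted p = 0.0293), and the block gave 0 calls of jasmonate genes in the other comparisons. At an unadjusted p under 0.05 it gave 17 of 32 with age in wild type (10.13% of all genes), 6 between genotypes at day 10 (8.43%), 4 in the difference between the ages (2.38%) and 5 with age in the knockdown line (10.4%). Over the 6 pairs of groups, Pearson's r between the deviations of same-numbered libraries (across genes) was -0.24 to 0.33. It was over 0.1 in 4 pairs and not in the pairs of the day 10 wild type with either day 16 group, so the numbers were not taken to pair the libraries.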
